A study of Homo sapiens with 12 samples.

Results

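The 10 genes followed here belong to transforming growth factor beta (TGF-β) signalling and were measured in HK2 cells, an immortalised line of human kidney proximal tubule epithelium. They are the ligands TGFB1, TGFB2 and TGFB3, the receptors TGFBR1, TGFBR2 and TGFBR3, and the signal carriers SMAD2, SMAD3, SMAD4 and SMAD7. They were taken by gene symbol from a list chosen with earlier results of these data known. All 10 were found among the 62703 Ensembl gene identifiers. The 12 libraries fell into 4 groups of 3. NG cells were kept in 5.5 mM glucose and received a control vector. HG cells were kept in 50 mM glucose. The si-FGF9 cells were kept in 5.5 mM glucose and transfected with an siRNA against FGF9. HG+OE-FGF9 cells were kept in 50 mM glucose and received a lentivirus vector that overexpresses FGF9. The comparisons ask how the RNA of these genes differed with high glucose, with the siRNA, and with the FGF9 vector in high glucose.

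TGF-β ligands are made as latent dimers that are held in the extracellular matrix until integrins or proteases free them. The active ligand brings together the type II receptor TGFBR2 and the type I receptor TGFBR1, and the coreceptor TGFBR3 (betaglycan) helps to present TGFB2 in particular. TGFBR1 phosphorylates SMAD2 and SMAD3, which enter the nucleus with SMAD4, while SMAD7 is induced by the pathway and inhibits it at the receptor. In the kidney tubule the pathway is known for matrix production and epithelial to mesenchymal transition.

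The values are TPM (transcripts per 1000000), which are scaled for transcript length and to the same sum in each library, so that levels can be set side by side between genes but sequencing depth is unknown. A TPM of at least 1 was reached by 11549 to 13949 genes in a library. FGF9 was listed at 0 in the 9 libraries of NG, HG and si-FGF9 and at 3.34, 4.03 and 3.82 TPM in HG+OE-FGF9. The siRNA could thus not be checked on its target in these libraries. By RT-qPCR, the study reports a lower mean of FGF9 RNA in si-FGF9 than in NG, with a p-value that missed its own limit. No non-targeting siRNA is described, nor a control vector for HG. The labels do not say whether the 3 libraries of a group came from separate cultures, and p-values then measure only the spread between libraries. Of 9 renal epithelial markers, 8 had a mean TPM of at least 1, and CDH1 (E-cadherin) did not exceed 0.28 TPM. Of 10 markers of differentiated proximal tubule, 7 stayed under 1 TPM in all libraries, with LRP2, CUBN and SLC22A6 at or near 0. The highest values of SLC5A2 and AQP1 were 3.01 and 2.34 TPM. GGT1 was detected in all libraries, from 71.65 to 195.31 TPM. Its mean was lowest for NG, at 78.7 TPM, and highest for si-FGF9, at 186 TPM. The means of HG (116 TPM) and HG+OE-FGF9 (83.8 TPM) lay between these. Endothelial markers summed to at most 0.15 TPM. The 8 fibroblast markers summed to between 62.6 and 89.2 TPM in NG, against 17.4 to 41.1 with HG, 11.6 to 21 with si-FGF9 and 11.7 to 22.6 with HG+OE-FGF9. Most of this sum came from 1 gene, LUM, at 84.04, 60.18 and 55.71 TPM in NG. Of the 8, 5 stayed under 1 TPM in all libraries. The 4 leukocyte markers summed to between 110 and 163 TPM in all libraries, with CD14 and CD68 detected and CD3E and PTPRC near 0. CD68 made up most of this sum, at 107.98 to 158.66 TPM, and CD14 did not exceed 3.9 TPM. The part of these markers in the results below was not tested. In the HG group, replicate 2 had the lowest value for 8 of the 10 genes and replicate 3 the highest for 7. In HG+OE-FGF9, replicate 3 had the highest value for 8 of the 10.

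In NG the order of the levels was TGFB2, TGFB1, SMAD3, SMAD2, TGFBR1, SMAD4, SMAD7, TGFBR2, TGFBR3 and TGFB3. The libraries of SMAD7 overlapped with those of both neighbours in this order, SMAD4 and TGFBR2, and no other neighbours overlapped. In each of the other 9 libraries TGFB1 had the highest TPM of the 10 genes and SMAD3 the second highest. Thus, in the deposited TPM, TGFB2 led in NG and TGFB1 led in the other 3 groups. After a correction for GC content, described below, TGFB2 made up 37.9% of TGFB1 and TGFB2 together in NG. That correction takes the mean of all 12 libraries as its reference, and this share depends on it. It therefore cannot show which ligand led in NG.

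**Figure D1:**
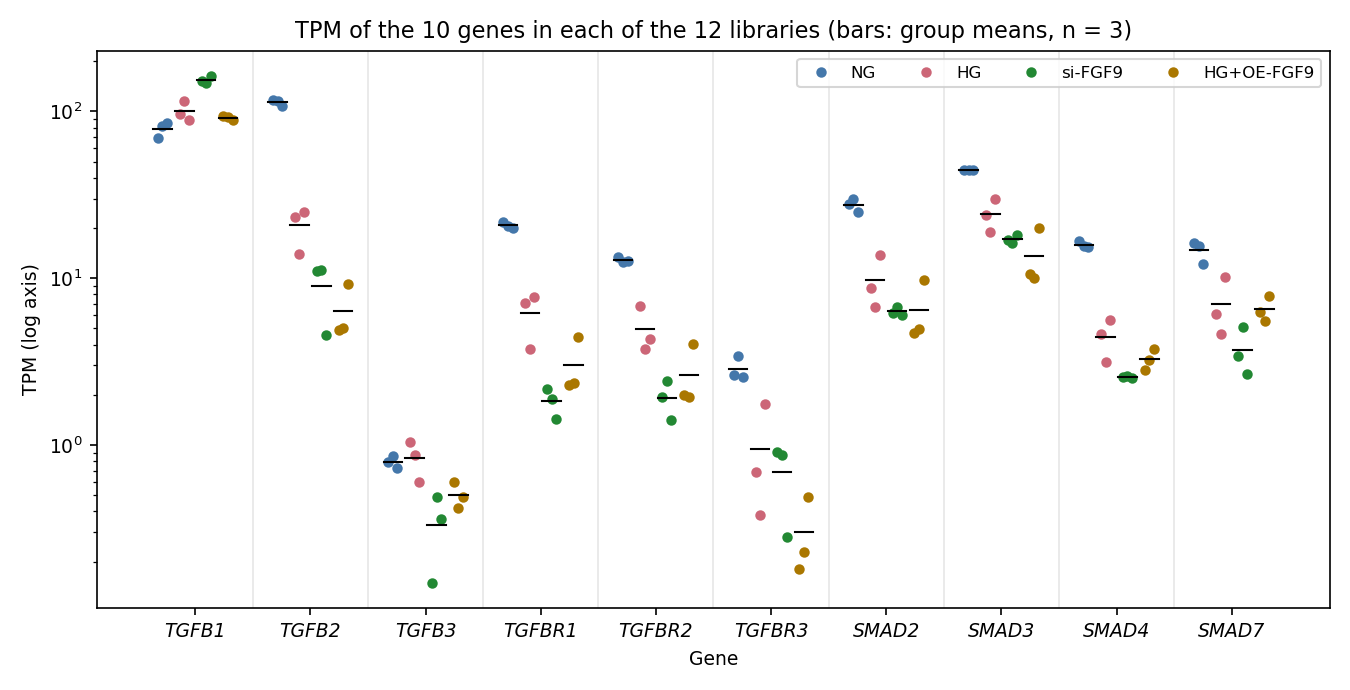
TPM (log axis) of the 10 genes in each library, with the groups from left to right in the order of the legend for each gene, 3 points per group and a bar at the group mean. The means of TGFB1 are 78.5 TPM in NG, 101 in HG and 155 in si-FGF9, while NG lies highest for the other genes except TGFB3, whose values all lie between 0.15 and 1.04 TPM.

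A gene was called higher or lower where limma, on log2(TPM + 1), gave a log2 fold change of at least 1 and an unadjusted p under 0.01, which are the limits of the study. Of the 10 genes, 9 reached a TPM of at least 1 in 3 libraries and were tested among 14639 genes, and TGFB3 did not. In HG, 7 of the 9 were lower than in NG and 0 higher. Of all genes tested, 22.7% were lower and 1.65% higher. In si-FGF9, 8 of the 9 were lower than in NG and 0 higher, against 42.2% lower and 5.36% higher of all genes. Between HG+OE-FGF9 and HG, 1 of the 9 was lower and 0 higher, against 2.67% lower and 2.94% higher. Between HG+OE-FGF9 and NG, 8 of the 9 were lower and 0 higher, against 32.7% lower and 7.01% higher. The comparisons share the NG or the HG libraries and are not independent of each other. The median log2 fold change of the 9 genes was -1.25, -1.95, -0.54 and -1.97 in these comparisons, beside -0.39, -0.79, -0.13 and -0.51 for all genes tested. Scaling by the median of ratios moved the median of all genes to 0.0043 in HG and -0.012 in si-FGF9 against NG. It left 3 genes lower in HG (TGFB2, TGFBR1 and SMAD4), and in si-FGF9 4 genes lower (TGFB2, TGFBR1, TGFBR2 and SMAD4) and TGFB1 higher. The share of all genes called under that scaling is not given here, so these counts cannot be set against it. In whole cultures, fewer cells of a kind and less RNA of a gene per cell cannot be told apart.

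**Figure D2:**
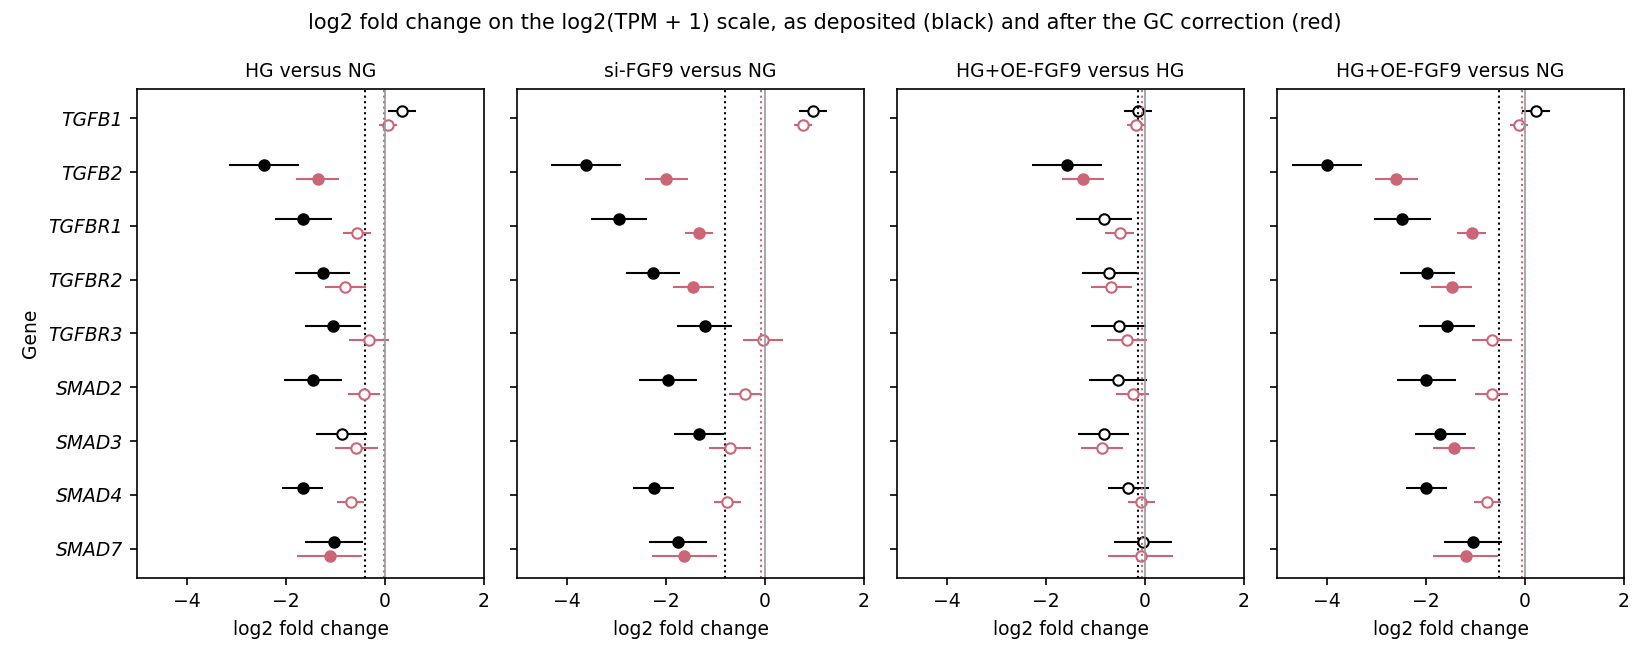
log2 fold change on the log2(TPM + 1) scale with its 95% confidence interval for the 9 genes tested, in 4 comparisons, from the deposited TPM (black) and after a correction for GC content (red). Filled points passed the criteria, open points did not, and the dotted lines mark the median of all genes tested. TGFB2 is filled in all comparisons under both settings, and TGFB1 is open in all of them.

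Among the ligands, TGFB2 fell and TGFB1 did not. TGFB2, best known for its role in development and in epithelial to mesenchymal transition, had 117.61, 114.77 and 107.67 TPM in NG. HG cells had 23.14, 13.99 and 25.02 TPM. The si-FGF9 cells had 11.03, 11.22 and 4.57, and HG+OE-FGF9 cells had 4.88, 5.00 and 9.29. All 3 NG libraries lay far above the rest, the HG libraries came next, and si-FGF9 and HG+OE-FGF9 overlapped. The NG mean was 5.47 times the HG mean, a log2 fold change of -2.44 ± 0.33 (SE, limma adjusted p = 0.000619). TGFB2 fell further in si-FGF9 versus NG, by 3.61 ± 0.33 on the log2 scale (limma adjusted p = 7.42e-06). It was also the only one of the 9 genes that was lower with the FGF9 vector than in HG, at -1.57 ± 0.33 (limma adjusted p = 0.0127), and against NG it was lower by a log2 fold change of -4.00 ± 0.33 (limma adjusted p = 1.29e-05).

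TGFB1, the ligand most studied in kidney fibrosis, had 69.45, 81.26 and 84.74 TPM in NG and 97.14, 115.40 and 89.23 in HG. The si-FGF9 libraries had 152.87, 148.33 and 162.90 TPM and the HG+OE-FGF9 libraries 93.36, 92.24 and 88.66. The NG libraries lay below all others, si-FGF9 lay above all others, and HG and HG+OE-FGF9 overlapped. The log2 fold change in si-FGF9 versus NG was 0.97 ± 0.13 (SE, limma adjusted p = 4.32e-05), just short of the minimum of 1. It was 2.00 with median-of-ratios scaling, 1.29 with quantile normalization, 1.00 without NG replicate 2, 1.03 without NG replicate 3 and 1.00 without si-FGF9 replicate 2, and it passed the criteria in these 5 settings. Neither the 0.35 ± 0.13 of HG (limma adjusted p = 0.0413) nor the 0.22 ± 0.13 of HG+OE-FGF9 (limma adjusted p = 0.151) against NG passed. Between HG+OE-FGF9 and HG it was -0.13, with a 95% confidence interval from -0.41 to 0.15. TGFB1 shares 215 exon bases with HNRNPUL1 on the opposite strand, which had a mean of 53.9 TPM, and it is not stated whether strand was used in counting.

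TGFB3, the third ligand, had 0.79, 0.86 and 0.73 TPM in NG and 1.04, 0.87 and 0.60 in HG. Its TPM was 0.15, 0.49 and 0.36 with si-FGF9 and 0.60, 0.42 and 0.49 with HG+OE-FGF9. It made up at most 0.857% of the ligand TPM in any library.

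Of the summed TPM of the 3 ligands, TGFB2 made up 58.9% ± 3.47 (SD, n = 3) in NG and 17.2% ± 5.76 in HG. In si-FGF9 its share was 5.49% ± 2.40, and with the FGF9 vector 6.50% ± 2.55. The difference from NG was -41.7 percentage points for HG, -53.4 for si-FGF9 and -52.4 for HG+OE-FGF9, and HG+OE-FGF9 differed from HG by -10.7 points. The groups did not overlap in any of these comparisons, and the exact two-sided permutation test gave p = 0.1 in each, the smallest that 3 against 3 libraries allow. The sum itself was 193 ± 4.54 TPM for NG, 164 ± 3.90 for si-FGF9, 122 ± 7.74 for HG and 98.3 ± 0.60 for HG+OE-FGF9 (SD, n = 3).

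**Figure D3:**
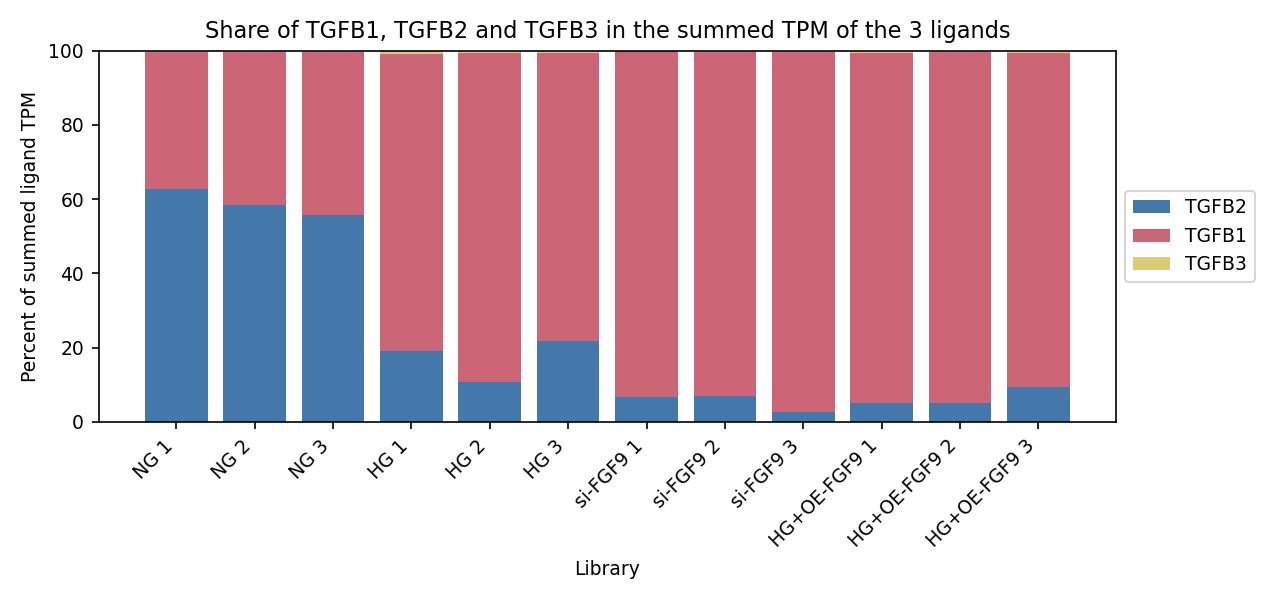
Percent of the summed TPM of TGFB1, TGFB2 and TGFB3 that each ligand made up in each of the 12 libraries. TGFB2 makes up 55.7% to 62.6% in NG, 10.7% to 21.8% in HG, and at most 9.44% elsewhere.

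TGFB1 lies on the minus strand of chromosome 19 from 41301587 to 41353911, and TGFB2 on the plus strand of chromosome 1 from 218346235 to 218444619 (GENCODE release 29, GRCh38). The 250 bases before the start that RefSeq lists for each are shown because in HG and si-FGF9 TGFB2 fell against NG while the log2 fold changes of TGFB1 were above 0, with matches to the GC box GGGCGG, a site known to be bound by SP1, in capitals on either strand. The TGFB1 bases are chr19:41353923-41354172, minus strand, and the TGFB2 bases chr1:218345086-218345335, plus strand, both 5′ to 3′ in the direction of transcription (RefSeq, GRCh38.p14).
TGFB1: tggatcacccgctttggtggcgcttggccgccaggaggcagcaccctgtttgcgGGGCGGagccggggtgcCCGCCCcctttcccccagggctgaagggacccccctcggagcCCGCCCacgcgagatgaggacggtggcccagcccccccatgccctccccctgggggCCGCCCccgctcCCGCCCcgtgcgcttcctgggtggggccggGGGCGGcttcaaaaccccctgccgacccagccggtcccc
TGFB2: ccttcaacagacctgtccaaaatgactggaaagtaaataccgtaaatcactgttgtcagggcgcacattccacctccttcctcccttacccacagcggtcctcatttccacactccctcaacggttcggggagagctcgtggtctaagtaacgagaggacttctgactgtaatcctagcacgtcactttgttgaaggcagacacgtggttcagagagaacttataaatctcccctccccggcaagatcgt
The TGFB1 bases held 6 GC boxes and a GC content of 76.8%, and the TGFB2 bases held 0 GC boxes and a GC content of 50.4%, beside a median of 58% for the 35116 promoters listed. The start listed for TGFB2 by RefSeq lies 899 bases before the GENCODE start. The nearest start listed by RefSeq lay 20184 bases from the GENCODE start for TGFBR3, 1839 for SMAD3, 1819 for SMAD4 and 1087 for SMAD7. The data do not show which starts were used in these cells, so the bases searched may not be the promoters in use. RefSeq listed 26 promoters for the 10 genes, each searched over 250 bases on both strands. GC boxes were found in 11 of the 26, for 7 of the genes, and in 42.64% of all promoters. Beside TGFB1 these were TGFBR1, TGFBR2, TGFBR3, SMAD2, SMAD3 and SMAD4, whose log2 fold changes against NG were below 0 in HG and si-FGF9. The genes without a match were TGFB2, TGFB3 and SMAD7. The AP-1 motif TGANTCA was found in 1 of the 26, at an alternative start of SMAD3, and in 6.573% of all promoters. The cAMP response element TGACGTCA (1.646% of all promoters) and the palindromic SMAD element GTCTAGAC (0.1823%) were found in 0 of the 26.

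TGFB2-OT1, a noncoding RNA annotated within the TGFB2 locus on the same strand, shares 1371 exon bases with TGFB2, and reads from the shared bases could be counted for either gene. Its TPM was 203.13, 140.81 and 149.17 in NG and 51.90, 22.44 and 74.72 in HG. With si-FGF9 it had 10.91, 13.01 and 7.01 TPM, and with HG+OE-FGF9 11.28, 10.49 and 31.81. NG was again the highest group, and HG lay above si-FGF9 with no overlap.

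The 3 receptors fell together in HG and in si-FGF9. TGFBR1, the type I receptor kinase, had 21.80, 20.59 and 19.93 TPM in NG and 7.08, 3.79 and 7.71 in HG. The si-FGF9 libraries had 2.18, 1.89 and 1.43 TPM and the HG+OE-FGF9 libraries 2.28, 2.37 and 4.45. NG lay above all other groups and HG above si-FGF9. TGFBR1 fell by 1.64 ± 0.26 on the log2 scale in HG (SE, limma adjusted p = 0.00104), and with si-FGF9 the log2 fold change was -2.95 ± 0.26 (limma adjusted p = 6.98e-06), both against NG. Its log2 fold change from HG to HG+OE-FGF9 was -0.83 ± 0.26 (limma adjusted p = 0.0666), short of the fold minimum, with overlapping groups. It passed the criteria there without HG replicate 2, at -1.10, and without HG+OE-FGF9 replicate 3, at -1.07.

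TGFBR2, the type II receptor that binds the ligand first, had 13.36, 12.54 and 12.64 TPM in NG and 6.78, 3.74 and 4.31 in HG. Its TPM was 1.93, 2.42 and 1.42 with si-FGF9 and 1.99, 1.94 and 4.01 with HG+OE-FGF9. As for TGFBR1, NG stood above the rest and HG above si-FGF9. Against NG, log2 fold changes were -1.25 ± 0.25 for HG (SE, limma adjusted p = 0.00252), -2.26 ± 0.25 for si-FGF9 (limma adjusted p = 1.69e-05) and -1.97 ± 0.25 for HG+OE-FGF9 (limma adjusted p = 6.95e-05).

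TGFBR3 was the least abundant of the receptors, with 2.63, 3.41 and 2.56 TPM in NG and 0.69, 0.38 and 1.76 in HG. With si-FGF9 it had 0.91, 0.87 and 0.28 TPM, and with HG+OE-FGF9 0.18, 0.23 and 0.49. Only NG was above 2 TPM, and the other groups overlapped with each other. TGFBR3 had a log2 fold change of -1.05 ± 0.26 in HG versus NG (SE, limma adjusted p = 0.00599), a call that was lost without NG replicate 2 (-0.95), HG replicate 1 (-0.98) or HG replicate 2 (-0.83). It was -1.21 with si-FGF9 and -1.57 with HG+OE-FGF9, and both passed.

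The receptor-activated SMADs fell less evenly. SMAD2 had 27.73, 29.78 and 24.82 TPM in NG and 8.79, 6.73 and 13.86 in HG. The si-FGF9 libraries had 6.22, 6.73 and 6.04 TPM and the HG+OE-FGF9 libraries 4.71, 4.97 and 9.72. The NG libraries lay above the rest, and HG, si-FGF9 and HG+OE-FGF9 met or overlapped. Against NG, the log2 fold change of SMAD2 was -1.45 ± 0.27 in HG (SE, limma adjusted p = 0.00184) and -1.95 ± 0.27 in si-FGF9 (limma adjusted p = 5.62e-05).

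SMAD3, which unlike the usual form of SMAD2 binds DNA directly, had 44.45, 44.29 and 44.44 TPM in NG and 24, 18.88 and 29.76 in HG. Its TPM was 17.01, 16.18 and 18.05 with si-FGF9 and 10.65, 10.07 and 19.99 with HG+OE-FGF9. No other group reached the NG libraries, which differed from each other by less than 1 TPM. In HG its log2 fold change from NG was -0.87 ± 0.23 (SE, limma adjusted p = 0.00963), short of the minimum, and -1.03 without HG replicate 3, where it passed. In si-FGF9 it was -1.33 ± 0.23 (limma adjusted p = 0.000299). From HG to HG+OE-FGF9 it was -0.83 ± 0.23 (limma adjusted p = 0.0453) and -1.13 without HG+OE-FGF9 replicate 3, where it passed. SMAD3 made up 61.8% ± 2.20 (SD, n = 3) of the summed TPM of SMAD2 and SMAD3 in NG, 67.9% ± 1.29 in HG+OE-FGF9, 71.7% ± 3.03 in HG and 72.9% ± 2.17 in si-FGF9. In the deposited TPM this share was above NG in each library of the other groups. After the GC correction described below, SMAD3 lay further below NG than SMAD2 in all 3 groups. For HG the corrected log2 fold change was -0.57 for SMAD3, beside -0.42 for SMAD2. The si-FGF9 values were -0.70 and -0.40, those of HG+OE-FGF9 -1.43 and -0.67. The rise of the share thus depends on the setting, and its cause was not tested.

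SMAD4, the common partner of the activated SMADs, had 16.66, 15.50 and 15.49 TPM in NG and 4.64, 3.14 and 5.62 in HG. With si-FGF9 it had 2.57, 2.61 and 2.54 TPM, and with HG+OE-FGF9 2.83, 3.24 and 3.75. NG lay above all others and si-FGF9 below all others. SMAD4 differed from NG by a log2 fold change of -1.65 ± 0.19 for HG (SE, limma adjusted p = 0.000428), -2.24 ± 0.19 for si-FGF9 (limma adjusted p = 6.26e-06) and -1.99 ± 0.19 for HG+OE-FGF9 (limma adjusted p = 2.25e-05).

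SMAD7, the inhibitor, had 16.19, 15.61 and 12.22 TPM in NG and 6.10, 4.62 and 10.20 in HG. The si-FGF9 libraries had 3.44, 5.09 and 2.66 TPM and the HG+OE-FGF9 libraries 6.27, 5.58 and 7.83. NG was the highest group, si-FGF9 lay below HG+OE-FGF9 with no overlap, and HG overlapped with both. SMAD7 differed from NG by a log2 fold change of -1.03 ± 0.27 for HG (SE, limma adjusted p = 0.00855), -1.75 ± 0.27 for si-FGF9 (limma adjusted p = 0.000113) and -1.05 ± 0.27 for HG+OE-FGF9 (limma adjusted p = 0.00456). The call in HG was lost without NG replicate 1 (-0.95), NG replicate 2 (-0.98), HG replicate 1 (-0.97) or HG replicate 2 (-0.80). The call in HG+OE-FGF9 was lost without NG replicate 1 (-0.98) or HG+OE-FGF9 replicate 2 (-0.96). Between HG+OE-FGF9 and HG the log2 fold change was -0.03, with a 95% confidence interval from -0.61 to 0.56.

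For the other genes, the interval of the log2 fold change between HG+OE-FGF9 and HG was also wide. It was -0.72 for TGFBR2 (95% confidence interval -1.27 to -0.17), -0.52 for TGFBR3 (-1.08 to 0.03), -0.54 for SMAD2 (-1.13 to 0.05) and -0.33 for SMAD4 (-0.75 to 0.08). None of these passed the criteria, and the libraries of the groups overlapped for each. The log2 fold changes of the 8 genes that were highest in NG were thus all below 0 from HG to HG+OE-FGF9, except that SMAD7 was above 0 under median-of-ratios scaling (0.097) and quantile normalization (0.11), and when HG replicate 3 (0.25) or HG+OE-FGF9 replicate 2 (0.068) was left out. A difference of either sign remained within the interval for TGFBR3, SMAD2, SMAD4 and SMAD7.

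The fold changes moved with the GC content of the genes. GC content of the longest transcript was highest for TGFB1, at 63.5%, and lowest for TGFB2, at 38.9%, with TGFBR1 at 39.0%, SMAD2 at 40.2% and SMAD4 at 41.1%. As a description across 14191 genes, which share their libraries, the rank correlation of GC content with the fold change from NG (Spearman's rho) was 0.64 with HG, 0.57 with si-FGF9 and 0.58 with HG+OE-FGF9. From HG to HG+OE-FGF9 it was 0.29. A correction that removed the GC trend from each library also brought the median of all genes in HG versus NG from -0.39 to -0.02. After it, 2 of the 9 genes were lower in HG than in NG (3.06% of all genes lower, 3.78% higher), and 4 in si-FGF9 (12% lower, 12.3% higher). For HG+OE-FGF9, 1 was lower than in HG (2.18% lower, 3.03% higher) and 5 were lower than in NG (11.8% lower, 11.3% higher), and 0 genes were higher in any of the 4 comparisons.

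**Figure D4:**
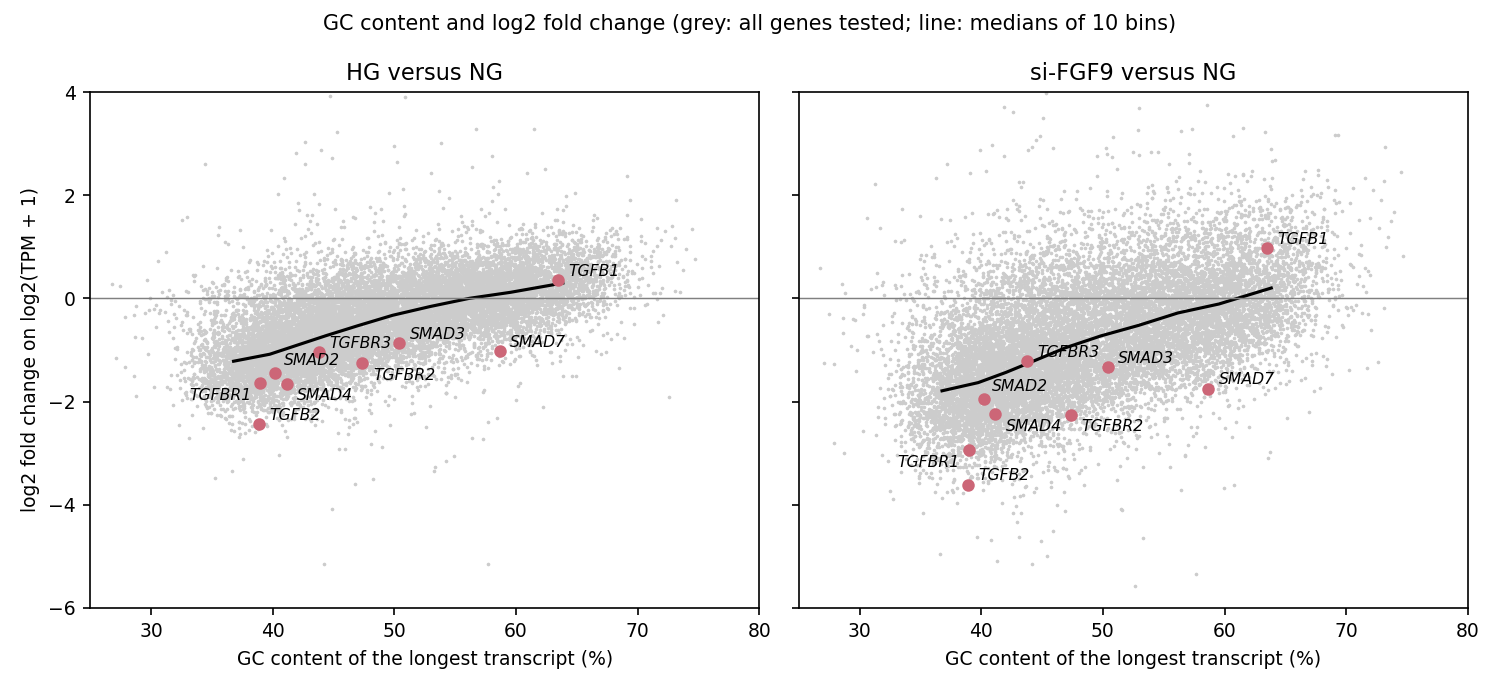
log2 fold change on the log2(TPM + 1) scale against the GC content of the longest transcript, for HG (left) and si-FGF9 (right) against NG, with all genes tested in grey, medians of 10 equal bins of GC content as a line, and the 9 genes in red. TGFB1 lies at the GC-rich end above 0, and TGFB2 (38.9% GC) and SMAD7 (58.7% GC) lie well below the line in both panels.

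TGFB2 was lower under both settings in all comparisons, with corrected log2 fold changes of -1.35 ± 0.20 for HG (SE, limma adjusted p = 0.00123), -1.99 ± 0.20 for si-FGF9 (limma adjusted p = 1.45e-05) and -2.60 ± 0.20 for HG+OE-FGF9 (limma adjusted p = 8.40e-06) against NG. From HG to HG+OE-FGF9 it was -1.25 ± 0.20 (limma adjusted p = 0.00289). SMAD7, a GC-rich gene, had corrected values of -1.11 ± 0.30 for HG (SE, limma adjusted p = 0.0178), -1.63 ± 0.30 for si-FGF9 (limma adjusted p = 0.000792) and -1.19 ± 0.30 for HG+OE-FGF9 (limma adjusted p = 0.00553), all against NG. TGFBR1 and TGFBR2 passed in si-FGF9, at -1.33 and -1.44, and in HG+OE-FGF9 versus NG, at -1.07 and -1.48, but not in HG, at -0.56 and -0.80. SMAD3 passed in HG+OE-FGF9 versus NG alone, at -1.43. The calls of TGFBR3, SMAD2 and SMAD4 were lost in all comparisons, and TGFBR3 in si-FGF9 versus NG went to -0.03. TGFB1 in si-FGF9 went to 0.78 ± 0.08 (SE, limma adjusted p = 2.34e-05) and in HG to 0.07. With the same correction, TGFB2 made up 37.9% of TGFB1 and TGFB2 together in NG, 9.06% in HG+OE-FGF9, 18.2% in HG and 8.01% in si-FGF9. The level of this share in NG depends on the mean of all 12 libraries, which the correction takes as its reference. It therefore cannot show which ligand led in NG.

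Further genes of the pathway were grouped in 5 lists of 84 genes, of which 76 were tested. Against NG, 33 were lower and 2 higher in HG, 46 lower and 2 higher in si-FGF9, and 40 lower and 3 higher in HG+OE-FGF9. HG+OE-FGF9 against HG had 9 lower and 2 higher. After the GC correction, HG had 10 lower and 1 higher, si-FGF9 26 lower and 3 higher, HG+OE-FGF9 23 lower and 3 higher against NG, and HG+OE-FGF9 7 lower and 2 higher against HG. These counts stand beside the shares of all genes given above.

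Of 10 tested genes for the storage and release of latent TGF-β, 6 were lower than in NG in HG and 6 with si-FGF9. After the GC correction 3 of the 10 were lower in HG and 4 with si-FGF9. ITGAV, the alpha V integrin chain that frees latent TGF-β together with ITGB6 or ITGB8, had 112.71, 100.19 and 89.81 TPM in NG and 22.88, 12.78 and 32.45 in HG. THBS1 (thrombospondin 1), an activator of the latent ligand, had 103.03, 103.48 and 103.86 TPM in NG and 53.64, 30.69 and 21.69 in HG. Both were lowest in HG+OE-FGF9 on average, at 8.65 ± 3.94 and 9.85 ± 3.78 TPM (SD, n = 3). THBS1 had a mean of 24.9 TPM in si-FGF9. The RT-qPCR of the study had THBS1 higher in HG and si-FGF9 than in NG, opposite to these libraries. From HG to HG+OE-FGF9, 5 of the 10 were lower, and THBS1 (-1.70), FBN1 (fibrillin 1, -1.33) and ITGAV (-1.28) led by log2 fold change. After the GC correction 3 of these 5 remained lower, THBS1, FBN1 and LTBP2. The ITGAV call there was lost without HG replicate 1 (-1.23), HG replicate 3 (-0.98), HG+OE-FGF9 replicate 1 (-1.13) or HG+OE-FGF9 replicate 2 (-1.11). FURIN, the protease that cleaves the ligand precursor, was the 1 gene higher in HG+OE-FGF9 than in NG, at 1.01. It did not pass after the GC correction (0.75), without NG replicate 1 (0.90) or without HG+OE-FGF9 replicate 3 (just under 1).

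Of 22 regulators of the receptors and SMADs, 8 were lower and 1 higher in HG, and 15 were lower and 0 higher in si-FGF9. WWP1, a ubiquitin ligase, and SKIL (SnoN), a corepressor of the SMADs, led with log2 fold changes of -2.01 and -1.95 in HG, and of -2.97 and -2.79 with si-FGF9. Both genes oppose the pathway, so that the genes lower in this list include inhibitors. ENG (endoglin), a coreceptor, was higher in HG than in NG by 1.05 ± 0.32 on the log2 scale (SE, limma adjusted p = 0.0163). Its TPM was 4.81, 6.03 and 1.61 in HG against 1.12, 1.25 and 1.5 in NG. The ENG call held in 1 of the 6 fits with 1 library left out, the one without HG replicate 3 (1.48), and the lowest log2 fold change was 0.77, without HG replicate 2. With the GC correction 0 of the 22 passed in HG (WWP1 at -0.93, SKIL at -0.88, ENG at 0.78), and in si-FGF9 6 were lower and 1 higher. Between HG+OE-FGF9 and HG, 0 of the 22 passed.

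Among 9 transcription partners of the SMADs, FOXH1, which recruits SMAD2 complexes to DNA, was higher than in NG in all 3 other groups. Its TPM was 1.12, 0.56 and 0.98 in NG and 3.70, 6.71 and 5.63 in HG. Its TPM was 18.64, 16.98 and 13.90 with si-FGF9 and 4.01, 4.19 and 3.76 with HG+OE-FGF9. The NG libraries lay below all others, and the log2 fold change was 1.73 in HG and 3.22 ± 0.21 in si-FGF9 (SE, limma adjusted p = 2.69e-06). After the GC correction these were 1.46 and 3.03. E2F5, SP1 and the acetyltransferase EP300 were lower in HG, at -1.46, -1.39 and -1.14, and again in si-FGF9, at -2.97, -1.75 and -1.87. With GC content corrected for, none of these 3 passed in HG (-0.36, -0.73 and -0.91), nor did SP1 in si-FGF9 (-0.67). The EP300 call in HG was also lost without HG replicate 2 (-0.98).

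Of 14 genes of the branch that signals without SMADs, 9 passed as lower in HG, and in si-FGF9 the number was 9 as well, with 0 higher in either. PIK3R1, the regulatory subunit of PI3 kinase, and ROCK1, a kinase downstream of RHOA, had the largest decreases of the list in HG, at -2.32 and -2.12. TAB2, an adaptor of the kinase TAK1, had the largest in si-FGF9, at -2.99. After the GC correction 2 of the 14 were lower in HG, PIK3R1 and ROCK1, and 5 were lower in si-FGF9.

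Of 21 tested target genes of TGF-β, 7 were lower and 0 higher in HG, and 12 were lower and 1 higher in si-FGF9. CCN2 (CTGF), a matricellular protein linked to fibrosis, had 173.26, 144.95 and 146.42 TPM in NG and 57.61, 41.41 and 28.22 in HG. The si-FGF9 libraries had 8.25, 6.85 and 9.53 TPM and the HG+OE-FGF9 libraries 16.98, 17.47 and 30.84. The si-FGF9 libraries were the lowest, and the log2 fold change against NG was -1.90 ± 0.27 in HG (SE, limma adjusted p = 0.000707) and -4.09 ± 0.27 in si-FGF9 (limma adjusted p = 2.47e-06). After the GC correction it was -1.65 and -3.52, and both passed.

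FN1 (fibronectin), a matrix protein, had 6148.63, 4745.44 and 4663.82 TPM in NG and 2660.90, 1590.44 and 3443.04 in HG. It had 1450.83, 1750.52 and 1266.18 TPM with si-FGF9 and 559.98, 567.19 and 1941.99 with HG+OE-FGF9, where replicate 3 stood apart. FN1 did not pass in HG (-1.07 ± 0.42, SE) and was lower in si-FGF9 (-1.80), where it did not pass after the GC correction (-0.43) or with median-of-ratios scaling (-0.77). With the FGF9 vector it was lower than in HG, at -1.52 (limma adjusted p = 0.0406). That call was lost without HG replicate 1 (-1.46), HG replicate 3 (-1.27), HG+OE-FGF9 replicate 1 (-1.22) or HG+OE-FGF9 replicate 2 (-1.23), and it was -2.11 without HG+OE-FGF9 replicate 3.

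Not all target genes moved one way. COL4A1, a basement membrane collagen, was lower than in NG in HG (-1.59) and si-FGF9 (-2.83) and lower with the FGF9 vector than in HG (-1.08), and KLF10, an early target, was lower in HG (-1.79) and si-FGF9 (-2.27). COL4A1 did not pass between HG+OE-FGF9 and HG without HG replicate 1 (-0.99) or HG+OE-FGF9 replicate 2 (-0.96). TIMP1, an inhibitor of matrix proteases, was higher in si-FGF9 than in NG, with 1905.25, 1836.37 and 1984.45 against 566.94, 576.28 and 594.11 TPM and a log2 fold change of 1.72. CDKN1A (p21), a cell cycle inhibitor, and SPHK1 (sphingosine kinase 1) were the 2 genes that were higher with the FGF9 vector than in HG, at 1.51 and 1.36, while IGFBP3, a binding protein of insulin-like growth factors, had the largest decrease of the list there, at -1.77. All 3 passed after the GC correction as well.

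**Figure D5:**
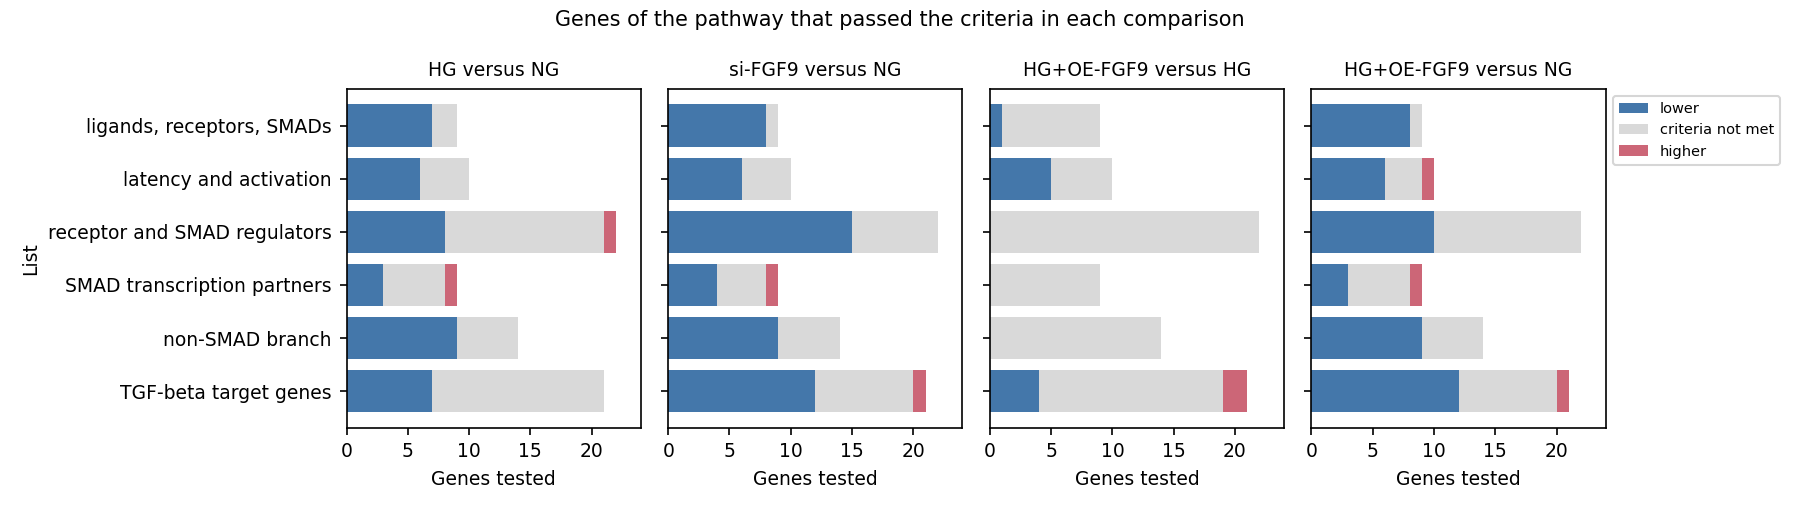
Number of genes tested in each list that were lower (blue), higher (red) or did not meet the criteria (grey) in each comparison, from the deposited TPM. Lower genes are frequent in the comparisons with NG, such as 15 of 22 regulators in si-FGF9, and few in HG+OE-FGF9 versus HG, where 5 of 10 genes of latency and activation were lower.

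Across the 12 libraries, TGFB1 ran against the other 9 genes, with Pearson's r on log2(TPM + 1) between -0.50 (SMAD3) and -0.89 (SMAD7). TGFBR1 and TGFBR2 had the highest r of any pair of the 10 genes, at 0.98. These are descriptions over libraries that fall into 4 groups and share their group differences. Among 6048 other genes with a symbol and a mean of at least 10 TPM, those most like TGFB1 were QARS1 (r = 0.98), QSOX1 (0.97) and CTSD (0.97), and those most like TGFB2 were ALPK2, ITGAV and ELL2 (0.99 each). C5orf15 (0.996), RNF145 (0.99) and CNOT8 (0.99) were most like TGFBR2, and DTWD1, RAB9A and KHDC4 (0.99 each) most like SMAD7. The 3 genes most like TGFB1 had a GC content of 54.8% to 64.0%, and the other 9 genes one of 38.3% to 47.6%.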

How the data were processed

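The 12 RNA libraries of HK2 cells were assigned to 4 groups of 3 by the sample titles. The values deposited by the authors are TPM per Ensembl gene, with 2 decimals and a sum of about 1000000 in each library. The series table held the same values as the files of the samples. The submitters' processing notes name Bowtie 0.12.2 and the mouse build mm8, which do not go with human gene identifiers, and the quantification tool, annotation and strand setting are not given in the sources used here. TPM keep no depth, so no count test was used and precision was judged from the spread of 3 libraries. The results text of the study describes the NG medium as one with mannitol, and names an adenovirus for the vector that the labels call a lentivirus.

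Every gene whose TPM reached 1 in at least 3 libraries was tested with limma 3.58.1 (R 4.3.3) on log2(TPM + 1), with a variance trend and all 12 libraries in one fit, and p-values were adjusted by Benjamini-Hochberg over all of them. This scale understates changes of low genes. The fit was tested on simulated data. GC content came from the longest transcript of GENCODE release 29. For the GC correction the trend with GC content (natural spline, 5 degrees of freedom) was taken out of the log2 values of every library. The trend was fitted to the deviation of each library from the mean of all 12 libraries, so GC differences between libraries were removed. Correlations and shares were computed in Python 3.11.15, with scipy 1.17.1 for exact permutation tests. The members, pathway lists and marker lists were chosen with earlier results of these data known. The genes named are the 10 members, CCN2, FN1, up to 2 genes with the largest change in each direction in each list and comparison, and the 3 genes most correlated with TGFB1, TGFB2, TGFBR2 and SMAD7. LTBP2 and TGFB2-OT1 and markers are named beside them. A further target gene that was to be named is counted in its list and not reported here. The alternatives were other pseudocounts, filters, scalings, thresholds, a replicate block, a fit on 6 libraries, and each library left out in turn.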

Additional observations from a re-analysis of the deposited data

How the results depend on the processing

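Of 612 alternative values for the 36 log2 fold changes of the 9 genes tested, 542 kept their direction and their side of the criteria, and 7 changed sign. A fold change stays the same with other thresholds, no filter, the replicate block, 6 libraries or no variance trend. Values from these settings could lose or gain a call but could not change sign. The number of the 9 genes called in HG versus NG went from 7 to 3 with median-of-ratios scaling, 4 with quantile normalization and 2 with the GC correction, and the number of pathway genes from 35 to 17, 19 and 11. In si-FGF9 versus NG, 8 went to 5 with median-of-ratios scaling (1 higher, 4 lower) and 4 with the GC correction, and 48 pathway genes to 29 with the GC correction. In HG+OE-FGF9 versus NG the GC correction gave 5 in place of 8 and 26 in place of 43. In HG+OE-FGF9 versus HG, 1 went to 2 with a pseudocount of 0.1 and 2 with an adjusted p under 0.05 and no minimum fold change, and to between 1 and 3 with 1 library left out (2 without HG replicate 2, 3 without HG+OE-FGF9 replicate 3). The 11 pathway genes there went to 7 in a fit on 6 libraries and to between 6 and 18 with 1 library left out (7 without HG replicate 1, 18 without HG replicate 2, 6 without HG+OE-FGF9 replicate 1 or 2). With the GC correction, which was run on tested genes and so without TGFB3, the change of the TGFB2 share of the sum of TGFB1 and TGFB2 was -19.8, -29.9 and -28.9 percentage points in HG, si-FGF9 and HG+OE-FGF9 versus NG, beside -41.7, -53.4 and -52.4 for its share of all 3 ligands in the deposited TPM. The cause of these shifts was not tested. Shares of all genes called are given above for the deposited TPM and the GC correction alone. Counts under the other settings thus cannot be set against such a share.

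None of the values that changed sign had been called. The log2 fold change of SPHK1 in HG versus NG was -0.29 with the GC correction and ran from -0.047 (without HG replicate 2) to 0.16 with 1 library left out. CDKN1A in si-FGF9 versus NG was 0.75 with median-of-ratios scaling and 0.39 with quantile normalization. TGFB1 was -0.11 in HG+OE-FGF9 versus NG with the GC correction and 0.0098 in HG+OE-FGF9 versus HG with median-of-ratios scaling. Also in HG+OE-FGF9 versus HG, SMAD7 was 0.097 and KLF10 0.076 with median-of-ratios scaling, and SMAD7 0.11 with quantile normalization. With 1 library left out there, SMAD7 ran from -0.25 to 0.25 and KLF10 from -0.41 to 0.35, and leaving out HG replicate 3 turned the sign of both. Leaving out HG+OE-FGF9 replicate 2 also turned that of SMAD7 (0.068) and KLF10 (0.0046), and replicate 1 that of KLF10 (0.011).

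The replicate numbers were not found to pair the libraries. Deviations of the 18 same-numbered pairs had correlations from -0.44 to 0.25, with 3 of the 18 above 0.1. With the replicate number as a block the 9 genes gave 7, 8, 1 and 8 calls and the pathway genes 33, 47, 11 and 43, and with the block and the GC correction 2, 4, 1 and 5 and 11, 29, 9 and 26. Depth is unknown, so that counting error could not be set beside the low values of TGFBR3 and TGFB3.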

Other observations

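TGFBR3L, a gene with a domain like that of TGFBR3, was named here after its values were seen. Its TPM was 2.61, 5.03 and 3.31 in NG and 10.28, 11.97 and 6.22 in HG. Its TPM was 23.54, 22.58 and 17.63 with si-FGF9 and 14.86, 14.68 and 11.01 with HG+OE-FGF9. NG lay below all others and si-FGF9 above all others, the reverse of the order of TGFBR1.

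The TPM ratio of the inhibitor SMAD7 to SMAD3 was 0.331 ± 0.0485 (SD, n = 3) for NG, 0.221 ± 0.0852 for si-FGF9, 0.281 ± 0.0541 for HG and 0.512 ± 0.105 for HG+OE-FGF9. The HG+OE-FGF9 libraries, from 0.392 to 0.589, lay above those of the other groups. The deposited TPM ratio of TGFBR2 to TGFBR1 was 0.619 ± 0.0136 for NG and 1.05 ± 0.204 for si-FGF9. It was 0.834 ± 0.239 for HG and 0.864 ± 0.0420 for HG+OE-FGF9. The HG libraries overlapped with those of each other group. With the GC correction, TGFBR2 lay further below NG than TGFBR1 in all 3 groups. Corrected log2 fold changes of TGFBR2 and TGFBR1 were -0.80 and -0.56 for HG. They were -1.44 and -1.33 for si-FGF9, and -1.48 and -1.07 for HG+OE-FGF9. The difference between the 2 receptors was not tested.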
